A study of Mus musculus with 7 samples.

Results

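The Arp2/3 complex is the actin nucleator that starts new filaments as branches on the side of existing ones. Its subunits were followed by taking the 9 genes whose symbols name them, Actr2, Actr3, Arpc1a, Arpc1b, Arpc2, Arpc3, Arpc4, Arpc5 and Arpc5l, from the 54532 genes of a deposited count table of bulk RNA-seq from mouse kidney. All 9 were found by symbol, and all 9 passed the filter on low counts. The family was selected on its measured values in the comparison of DXZ with saline. Differences between these groups are therefore a description of the 9 genes: no p-value is given for them, calls from the fit over all genes are counted only beside the share called among all genes, and nothing is read from them. The groups were 3 libraries labelled DXZ and 4 labelled saline, all from male C57BL/6J animals of 6 to 8 weeks. Each had a tail vein dose of 20 mg/kg of cisplatin, an anticancer compound toxic to the kidney tubule. The DXZ animals were also dosed through the tail vein with 40 mg/kg DXZ, starting 30 min ahead of the cisplatin and repeated at intervals of 24 h over 3 days. DXZ is not spelled out in the labels, and for the other group they say saline only. Kidneys without cisplatin were not analysed here. Nothing in the labels says that the libraries came from separate animals, so the spread and every p-value may reflect technical differences.

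In cells, the complex lies inactive until a nucleation-promoting factor of the WASP or WAVE type binds it together with an actin monomer. Arp2 and Arp3, encoded by Actr2 and Actr3, resemble actin and form the template on which the branch grows. ARPC2 and ARPC4 form the backbone that also grips the mother filament, ARPC3 binds beside Arp3, ARPC1 is a propeller-shaped subunit near the contact with activators, and ARPC5 tethers Arp2. In mammals ARPC1 and ARPC5 each have alternative forms, Arpc1a or Arpc1b and Arpc5 or Arpc5l, of which a complex holds a single copy. Human complexes that hold ARPC1B and ARPC5L assemble actin better in vitro than those with the other forms, and loss of ARPC1B in people causes an immune and platelet disorder. Kidney tubule cells use branched actin in endocytosis and at cell junctions.

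Total counts ran from 16058157 to 18133736 per library. Markers of tubule segments and podocytes were present in every library: the 7 proximal tubule markers together reached 2469 to 3133 CPM in DXZ and 5454 to 10865 CPM in saline. CPM is the count scaled to library size after TMM adjustment. The library DXZ 1 stood apart from DXZ 2 and DXZ 3 in markers of other cells. Its 6 fibroblast and pericyte markers summed to 807 CPM, against 96.3 and 55.5 CPM in DXZ 2 and DXZ 3 and 142 to 547 CPM in saline. Its 6 endothelial markers summed to 306 CPM, against 107 and 70.1 CPM in DXZ 2 and DXZ 3 and 196 to 312 CPM in saline. In bulk tissue, fewer cells of a type and less RNA per cell cannot be told apart.

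Of the 9 subunits, Arpc1b stood out: its fitted level in DXZ was 2.24 times that in saline, while its paralog Arpc1a and the rest of the complex differed far less. Arpc1b averaged 234 ± 13.4 CPM in DXZ (SD, n = 3) and 104 ± 18.3 CPM in saline (SD, n = 4). The other 8 genes had fitted folds of 1.09 for Arpc4 to 1.39 for Arpc2. All 9 log2 fold changes were positive, with a median of 0.23, beside 0.01 over all 15351 tested genes, of which 51.3% were positive. In 6 of the 9 genes every DXZ library lay above every saline library, as it did for 12.8% of all tested genes. In edgeR's quasi-likelihood fit over all genes, at an adjusted p below 0.05, 2 of the 9 were called higher in DXZ, Arpc1b and Arpc2, and 0 lower, where 3.24% of all genes were called higher and 2.31% lower. DESeq2 called 4 of the 9 higher, with Actr2 and Arpc5 added, where it called 7.96% of all genes higher. Without DXZ 1, edgeR called 2 of the 9 higher, again Arpc1b and Arpc2, where 5.07% of all genes were called higher, and the 9 log2 fold changes then ran from 0.12 for Arpc4 to 1.12 for Arpc1b. Since the same comparison led to the choice of these genes, nothing is read from the counts. The call of Arpc1b was lost without DXZ 2 or saline 4, at log2 fold changes of 1.19 and 1.07. That of Arpc2 was lost on leaving out any 1 library but DXZ 1. Few genes of the whole table were called in those fits: 0.00637% without DXZ 2, 0.0263% without saline 4 and 0.897% without DXZ 3. Without saline 1, 2 and 3 the shares were 2.47%, 1.96% and 2.8%. With all 7 libraries the share was 5.56%. Why the calls of Arpc1b and Arpc2 were lost was not tested.

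**Figure D1:**
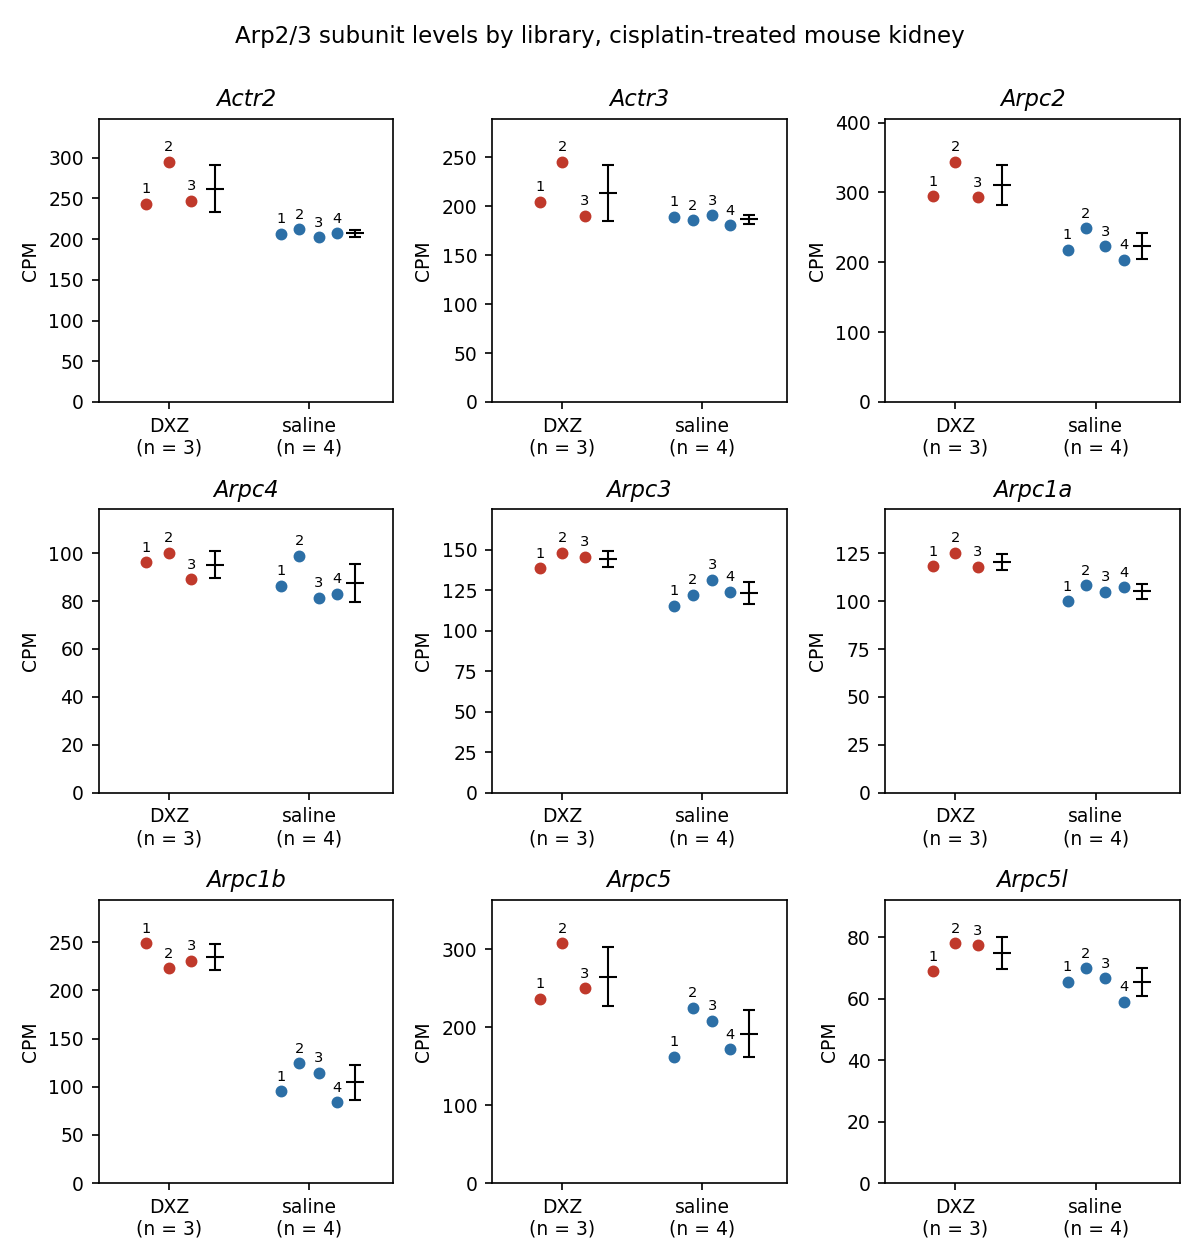
Level of each Arp2/3 subunit gene in CPM (y axis, from 0) in the 3 DXZ and 4 saline libraries; points are libraries with their replicate number, and the bar is the mean ± SD. Arpc1b separates the groups most widely, with 223 to 249 CPM in DXZ and 84.0 to 124 CPM in saline, and DXZ 2 is the highest DXZ library in 8 of the 9 panels.

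Both actin-like subunits were abundant. Actr2, which encodes Arp2, had 244, 295 and 247 CPM in DXZ 1 to 3, against 207, 212, 202 and 207 CPM in saline 1 to 4. The DXZ libraries all lay above a narrow saline range, and DXZ 2 was well above DXZ 1 and DXZ 3. Its log2 fold change, DXZ over saline, was 0.34 (SE 0.10), and 0.39 without DXZ 1. Actr3, which encodes Arp3, had 205, 245 and 190.5 CPM in DXZ, against 189, 186, 191 and 181 CPM in saline. The groups overlapped, since DXZ 3 lay within the saline range, and DXZ 2 was again highest. The log2 fold change of 0.19 (SE 0.11) for Actr3 became 0.22 without DXZ 1, 0.07 without DXZ 2 and 0.27 without DXZ 3. Actr3b, a second gene for Arp3 outside the 9, had 9, 0 and 0 counts in DXZ and 10, 2, 6 and 3 counts in saline, too few to test.

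Among the backbone subunits, Arpc2 differed more between the groups than Arpc4. Arpc2 had 295, 344 and 293 CPM in DXZ, against 218, 249, 223 and 204 CPM in saline, with no overlap and a log2 fold change of 0.47 (SE 0.11), which was 0.51 without DXZ 1. Its lowest DXZ library was DXZ 3 and its highest saline library was saline 2. Arpc4 had 96.1, 100.3 and 89.2 CPM in DXZ, against 86.4, 99.0, 81.4 and 83.0 CPM in saline. Here saline 2 lay above DXZ 1 and DXZ 3, and the log2 fold change was 0.12 (SE 0.10). Arpc4 was at 0.19 without saline 2, 0.12 without DXZ 1, 0.07 without DXZ 2 and 0.16 without DXZ 3. Arpc3, the subunit beside Arp3, had 139, 148 and 146 CPM in DXZ, against 115, 122, 131 and 124 CPM in saline. The groups did not overlap, and the log2 fold change was 0.23 (SE 0.09), and 0.25 without DXZ 1.

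**Figure D2:**
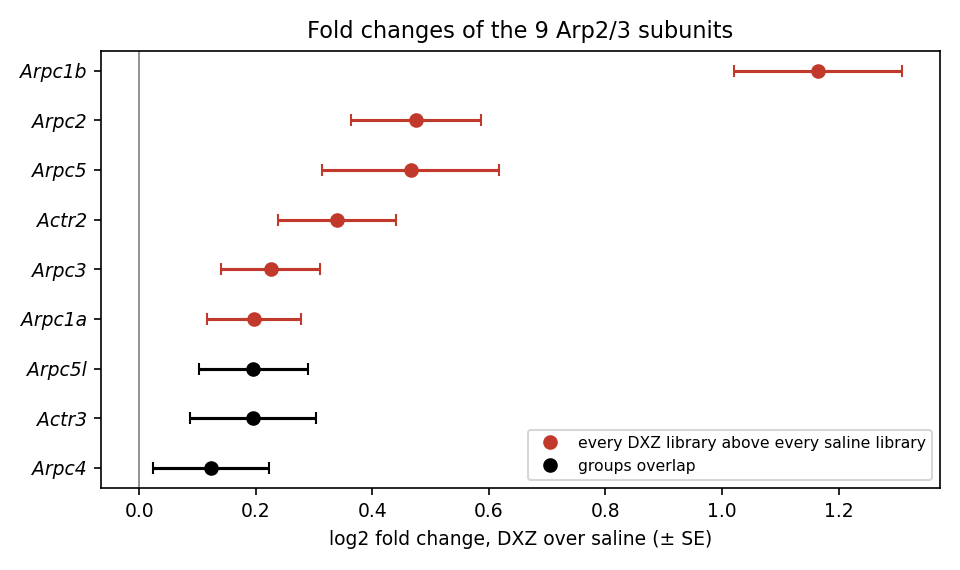
Log2 fold change of each subunit, DXZ over saline (x axis), with its SE, ordered by size; red marks genes whose every DXZ library lay above every saline library, and black marks genes whose groups overlap. Arpc1b is at 1.16 and the other 8 genes lie between 0.12 and 0.47.

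The paralogs Arpc1a and Arpc1b lie next to each other on the plus strand of chromosome 5, Arpc1a at 145083830 to 145108761 and Arpc1b at 145114215 to 145130705 (GRCm38), with 5453 bases between them. Arpc1a had 118, 125 and 118 CPM in DXZ, against 99.98, 109, 105 and 107 CPM in saline. Its groups were narrow and did not overlap, and the log2 fold change was 0.20 (SE 0.08), and 0.21 without DXZ 1. Arpc1b had 249, 223 and 231 CPM in DXZ, against 95.2, 124, 114 and 84.0 CPM in saline. Its lowest DXZ library, DXZ 2, lay far above its highest saline library, saline 2. The log2 fold change of Arpc1b was 1.16 (SE 0.14), and 2.78% of all tested genes had a larger one. It ran from 1.07 to 1.26 when single libraries were left out, and was 1.12 without DXZ 1. Pdap1, an opposite-strand gene whose span overlaps the end of Arpc1b, was at 77.4 ± 9.503 CPM in DXZ (SD, n = 3) and 65.7 ± 6.16 CPM in saline (SD, n = 4), less than Arpc1b in each group. Whether the counting used strand is not given in the sources used here, so reads in the shared stretch cannot be assigned to either gene with certainty.

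Levels of different genes were compared per length, in the deposited FPKM, fragments per kilobase scaled for depth. Arpc1b made up 51.4%, 47.1% and 49.5% of the summed FPKM of Arpc1a and Arpc1b in DXZ 1 to 3, against 32.3%, 36.5%, 35.4% and 28.2% in saline 1 to 4. The transcripts of both paralogs were thus near parity in every DXZ library, and Arpc1a led in every saline library. In means, the share of Arpc1b was 49.3% ± 2.14 in DXZ (SD, n = 3) and 33.1% ± 3.72 in saline (SD, n = 4). The log2 ratio of Arpc1b to Arpc1a was higher by 0.98 in DXZ, a 1.98-fold larger ratio, and this difference ran from 0.87 to 1.06 when single libraries were left out. Summed over both genes, the FPKM was 92.0 ± 1.15 in DXZ (SD, n = 3) and 61.1 ± 4.10 in saline (SD, n = 4). The table's lengths, 2567 bases for Arpc1a and 5115 for Arpc1b, count every annotated exon. With the lengths of the principal transcripts, 1632 and 3105 bases, a choice made after seeing the data, the share of Arpc1b was 50.5% ± 2.14 in DXZ and 34.1% ± 3.78 in saline (SD).

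The promoters of the pair are shown because the genes are neighbours with unequal differences between the groups. Each runs 250 bases before to 50 bases after the RefSeq start (GRCm38.p6), 5′ to 3′ on the plus strand. Capitals mark the GC box GGGCGG, which Sp1-type factors bind, and the ETS motif CCGGAAG, each on either strand. Arpc1a is chr5:145083619-145083918 and Arpc1b is chr5:145114006-145114305.
Arpc1a: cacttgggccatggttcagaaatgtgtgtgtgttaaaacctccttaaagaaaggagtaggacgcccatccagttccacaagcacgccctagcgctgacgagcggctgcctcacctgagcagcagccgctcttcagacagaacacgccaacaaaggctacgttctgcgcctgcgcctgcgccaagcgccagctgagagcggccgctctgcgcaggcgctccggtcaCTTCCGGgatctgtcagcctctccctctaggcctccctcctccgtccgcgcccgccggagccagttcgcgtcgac
Arpc1b: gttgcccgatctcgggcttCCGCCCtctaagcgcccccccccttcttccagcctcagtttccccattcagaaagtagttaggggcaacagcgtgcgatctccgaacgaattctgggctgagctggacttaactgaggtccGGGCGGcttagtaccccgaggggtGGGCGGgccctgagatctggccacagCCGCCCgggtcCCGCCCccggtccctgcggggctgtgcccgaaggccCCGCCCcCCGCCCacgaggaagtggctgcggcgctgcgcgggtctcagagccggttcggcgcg

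The Arpc1b promoter held 7 GC boxes, counted on both strands, and no ETS motif, whereas the Arpc1a promoter held 1 ETS motif and no GC box. Across the 8 subunits with a promoter in the RefSeq set, which leaves out Arpc5l, 6 held a GC box, against 35.9% of 32544 distinct promoters of the same length. An ETS motif lay in 5 of the 8, those of Actr2, Actr3, Arpc4, Arpc3 and Arpc1a, against 8.91% of all. GC content was 63.0% for Arpc1a and 69.3% for Arpc1b, with a median of 53.0% over all promoters. Among the 8, Arpc3 alone lay below that median, at 52.7%, and Arpc5 was highest, at 73.7%. The shares over all promoters were not matched for GC content, and its part in the motif counts was not tested. The CArG box, which the actin-regulated factor SRF binds, was found in Arpc4 alone, against 1.64% of all promoters. The TATA box TATAAA and the AP-1 motif TGANTCA were in none of the 8, against 13.6% and 7.79% of all promoters, and the CCAAT box CCAAT was in Actr2 and Arpc5, against 37.4%. Both strands were searched for each motif, and matches to different motifs were allowed to overlap. The matches are letters in a window and are not evidence of binding.

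In the ARPC5 pair it was the ratio of the less abundant form that was lower in DXZ, by a smaller margin. Arpc5, which tethers Arp2, had 237, 308 and 250.2 CPM in DXZ, against 162, 225, 208 and 172 CPM in saline. The groups were close, with DXZ 1 just above saline 2, and the log2 fold change was 0.47 (SE 0.15). It was 0.33 without DXZ 2 and 0.54 without DXZ 1. Arpc5l, its alternative form, had 68.9, 78.1 and 77.5 CPM in DXZ, against 65.5, 70.1, 66.7 and 59.1 CPM in saline. DXZ 1 lay below saline 2, and the log2 fold change was 0.20 (SE 0.09), and 0.25 without DXZ 1. Rpl35, a ribosomal protein gene on the opposite strand whose span overlaps that of Arpc5l, was called higher in DXZ, at 236 ± 14.1 CPM in DXZ (SD, n = 3) and 153 ± 16.3 CPM in saline (SD, n = 4), with an edgeR adjusted p of 0.0278. Its part in the Arpc5l values was not tested.

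Arpc5l made up 12.8%, 11.4% and 13.5% of the summed FPKM of Arpc5 and Arpc5l in DXZ, against 17.0%, 13.6%, 13.9% and 14.8% in saline. Arpc5 was the main form in all 7 libraries, and DXZ 3 and saline 2 nearly met. The log2 ratio of Arpc5l to Arpc5 was -2.80 ± 0.15 in DXZ (SD, n = 3) and -2.53 ± 0.17 in saline (SD, n = 4), a difference of -0.27 that ran from -0.34 to -0.19 when single libraries were left out. With principal transcript lengths, 1914 bases for Arpc5 and 1339 for Arpc5l, the share of Arpc5l was 28.9% ± 2.07 in DXZ and 32.9% ± 2.62 in saline (SD). Its size thus hangs on the length used, while the difference in the log2 ratio by construction does not. Between the actin-like subunits, the log2 ratio of Actr3 to Actr2 was -0.13 ± 0.07 in DXZ (SD, n = 3) and 0.02 ± 0.05 in saline (SD, n = 4).

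**Figure D3:**
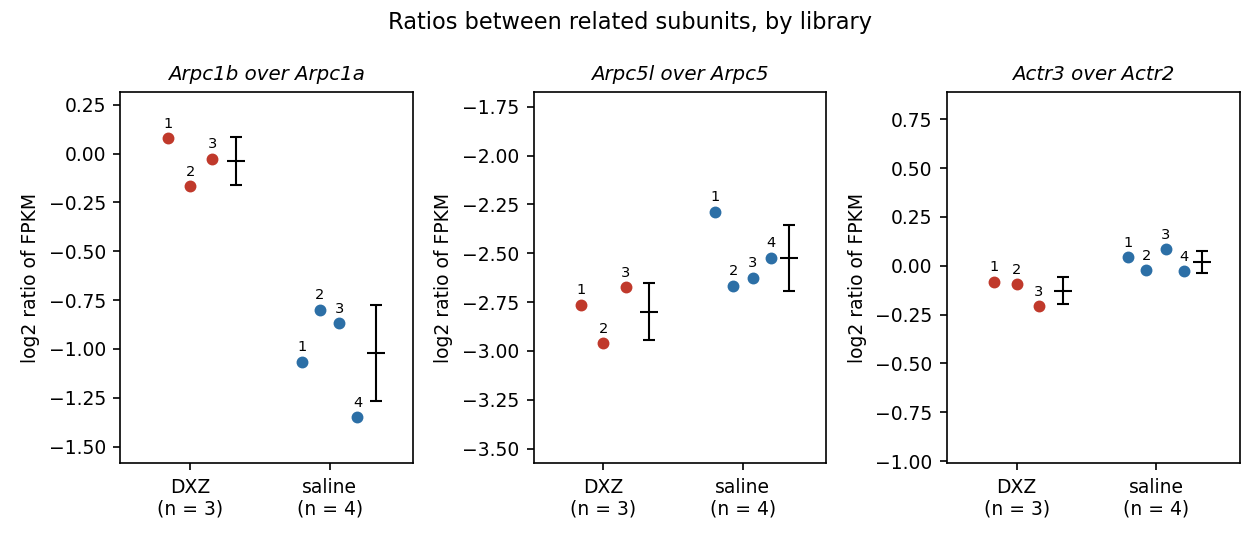
Log2 ratio of FPKM (y axis, each panel spanning the same range of log2 units) for Arpc1b over Arpc1a, Arpc5l over Arpc5 and Actr3 over Actr2 in each library, with the mean ± SD. The Arpc1b to Arpc1a ratio lies between -0.17 and 0.08 in DXZ and between -1.35 and -0.80 in saline, and the other pairs differ by -0.27 and -0.15 between the group means.

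In FPKM, Arpc2 and Arpc5 were the most abundant subunit transcripts in both groups, at 152 ± 15.6 and 116 ± 17.8 in DXZ (SD, n = 3) and 109 ± 8.83 and 83.9 ± 12.8 in saline (SD, n = 4). Arpc5l was the lowest, at 16.5 ± 1.34 FPKM in DXZ and 14.5 ± 0.96 FPKM in saline. In DXZ the middle of the order was Arpc3 at 51.8 ± 2.47, Actr2 at 49.9 ± 6.01, Arpc1a at 46.6 ± 2.13, Actr3 at 45.8 ± 6.49, Arpc1b at 45.4 ± 1.99 and Arpc4 at 40.7 ± 2.57 FPKM. In saline it was Arpc3 at 44.4 ± 2.40, Arpc1a at 40.8 ± 1.51, Actr3 at 40.1 ± 0.84, Actr2 at 39.6 ± 0.77 and Arpc4 at 37.5 ± 3.33 FPKM, with Arpc1b apart below them at 20.3 ± 3.49 FPKM. Neighbours from Arpc3 to Arpc1b in DXZ, and from Arpc1a to Arpc4 in saline, differed by less than the wider SD of each pair. From the highest to the lowest subunit the mean FPKM over 7 libraries spanned a factor of 8.31, which was 4.53 with principal transcript lengths. Those lengths also change the order at both ends. Over the 7 libraries Arpc3 was then second at 146 FPKM, above Arpc5 at 116. Arpc4 was lowest at 39.7, below Arpc5l at 51.5. In saline alone Arpc1b was lowest, at 33.5 FPKM against 38.3 for Arpc4.

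Replicates of most subunits were close together. The SD within groups on the log2 scale, pooled over both, was 0.05 for Arpc1a and 0.07 for Arpc3, which 1.32% and 3.92% of 9631 genes with at least 10 CPM undercut. It was 0.20 for Arpc1b and 0.21 for Arpc5, above the median of 0.18 over those genes. Those genes were not matched to the subunits for level, and the part of level in the spread was not tested. DXZ 2 was the highest DXZ library for 8 subunits and the lowest for the remaining one, Arpc1b. Saline 2 was the highest saline library for 7 subunits. Summed over the 8 subunits other than Arpc1b, the level was 1485 ± 137 CPM in DXZ (SD, n = 3) and 1190.1 ± 63.1 CPM in saline (SD, n = 4), a ratio of 1.25. Relative to the mean log2 CPM of those 8 genes, Arpc1b was at 0.66, 0.31 and 0.54 in DXZ and at -0.47, -0.23, -0.27 and -0.64 in saline.

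The genes whose pattern over the 7 libraries was most like the mean of the 9 subunits were Rnh1, Hgsnat, Tlr3, Ric8a and Ado. Likeness was the root mean square difference of log2 CPM after centring each gene on its mean, over 9419 protein-coding genes with at least 10 CPM. It was 0.03 for Rnh1 and 0.05 for Ado. These genes were picked as the closest to a profile that holds the difference between the groups, so nothing is read from their likeness. Within the family, Arpc2 lay closest to that mean profile, at 0.06, and Arpc1b farthest, at 0.42.

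Genes that control or work with the complex were taken as 11 lists of 88 genes, of which 86 could be tested. In DXZ 6 of them rose and 1 fell by edgeR's test, 8.14% in all, where 5.56% of all genes were called in either direction. The count was 0 without DXZ 2, DXZ 3 or saline 4. At an unadjusted p under 0.05 it was 23, 24 and 18, beside 3191 of 15705, 3248 of 15723 and 3074 of 15205 genes. In those fits 0.00637%, 0.897% and 0.0263% of all genes were called. Leaving out saline 1, 2 and 3 gave 3, 4 and 4 calls. These were 3.49%, 4.65% and 4.65% of the pathway genes, against 2.47%, 1.96% and 2.8% of all genes. Without DXZ 1 there were 9 calls, 10.5% of the pathway genes, against 10.1% of all genes. With all 7 libraries none of the WASP, WAVE and WASH genes was called, and without DXZ 1 edgeR called 2 of the WAVE complex genes, Brk1 higher at 0.37 (adjusted p = 0.0464) and Nckap1l lower at -1.65 (adjusted p = 0.0351). Of the 10 genes of WASP-type and other nucleation-promoting factors 0 were called, with a median log2 fold change of -0.06. Wasl, encoding N-WASP, was at 133 ± 21.8 CPM in DXZ and 142 ± 12.4 CPM in saline (SD, n = 3 and 4), and Wasf2, encoding WAVE2, at 80.0 ± 2.06 CPM in DXZ and 68.9 ± 1.81 CPM in saline. Their edgeR adjusted p-values were 0.687 and 0.121. Of the 8 WAVE regulatory complex genes 0 were called, at a median of -0.06. The smallest subunit Brk1 was at 0.33 (SE 0.08, adjusted p = 0.0588 by edgeR and 0.00793 by DESeq2) while Nckap1 was at 0.09. All 5 WASH complex genes, which serve endosomes, went uncalled at a median of -0.11, with Washc1 at 0.04. Of 11 upstream GTPases and adaptors 0 were called, at a median of 0.17. Rac1 was at 0.26 (SE 0.11) and Cdc42 at 0.17 (SE 0.12), and they were at 0.33 and 0.22 without DXZ 1.

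Among the branch stabilisers, the capping, severing and monomer-binding genes and the cytoplasmic actins, Cttn, Cfl1, Tmsb10 and Actg1 rose. Cttn, encoding cortactin, which stabilises branches, rose to 287 ± 22.1 CPM in DXZ (SD, n = 3), against 182 ± 15.5 CPM in saline (SD, n = 4) (log2 fold change 0.65, SE 0.11, edgeR adjusted p = 0.0224). Of 14 capping, severing and monomer-binding genes 2 rose and 0 fell, at a median of 0.27. Cfl1, encoding the severing protein cofilin, rose to 573 ± 3.77 CPM in DXZ, against 365 ± 14.2 CPM in saline (log2 fold change 0.65, SE 0.10, edgeR adjusted p = 0.0209). Tmsb10, encoding a monomer-binding thymosin, rose to 87.1 ± 14.2 CPM in DXZ, against 41.6 ± 7.15 CPM in saline (log2 fold change 1.06, SE 0.16, edgeR adjusted p = 0.0212). Pfn1, encoding profilin, missed the threshold at 0.51 (edgeR adjusted p = 0.0509) and passed by DESeq2 and 5 other settings, and the capping protein gene Capzb was at 0.30 (edgeR adjusted p = 0.122). Actg1, encoding cytoplasmic gamma-actin, rose, at 1080.5 ± 18.6 CPM in DXZ and 708 ± 91.2 CPM in saline (log2 fold change 0.61, edgeR adjusted p = 0.0446), and Actb, encoding beta-actin, was at 0.31 (edgeR adjusted p = 0.284). The call of Actg1 was lost whichever library was left out, at adjusted p-values of 0.0516 without DXZ 1 to 0.129 without saline 4.

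Of 17 tested Ena/VASP, formin and other nucleator genes 2 rose and 1 fell, at a median of 0.16. Inf2, a formin, rose to 28.1 ± 4.23 CPM in DXZ, against 15.7 ± 2.62 CPM in saline, and Spire2, a nucleator of unbranched filaments, to 14.8 ± 3.502 CPM in DXZ, against 7.59 ± 1.41 CPM in saline (SD, n = 3 and 4; edgeR adjusted p = 0.0333 and 0.0411). Fhod3, another formin, fell to 26.05 ± 2.89 CPM in DXZ, against 36.6 ± 2.81 CPM in saline (edgeR adjusted p = 0.0463). The calls of Fhod3 and Spire2 were each lost on leaving out any 1 library but DXZ 1, at adjusted p-values up to 0.121 and 0.114, and that of Inf2 on leaving out any 1 but DXZ 1 or saline 2, at up to 0.103. Those of Cttn, Cfl1 and Tmsb10 were lost without DXZ 2, DXZ 3 or saline 4, at adjusted p-values of 0.0519 to 0.0845. Of 10 inhibitors and debranching factors 0 were called, at a median of 0.16. The coronin Coro2a had the largest log2 fold change of the 86 tested pathway genes, 1.11 (SE 0.28, edgeR adjusted p = 0.0586). Coro2b was at -0.54 (SE 0.18, edgeR adjusted p = 0.116), and neither gene overlapped between the groups. Arpin, an inhibitor of the complex, was at 0.19, the debranching factor Gmfb at -0.04, and the coronins Coro1b and Coro1c at 0.36 and 0.12 (log2 fold changes; edgeR adjusted p between 0.131 and 0.840). Without DXZ 1, Arpin was at 0.05, Gmfb at 0.03, Coro1b at 0.21 and Coro1c at -0.01. The 7 actin-related proteins outside the complex had 0 calls and a median of 0.00.

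**Figure D4:**
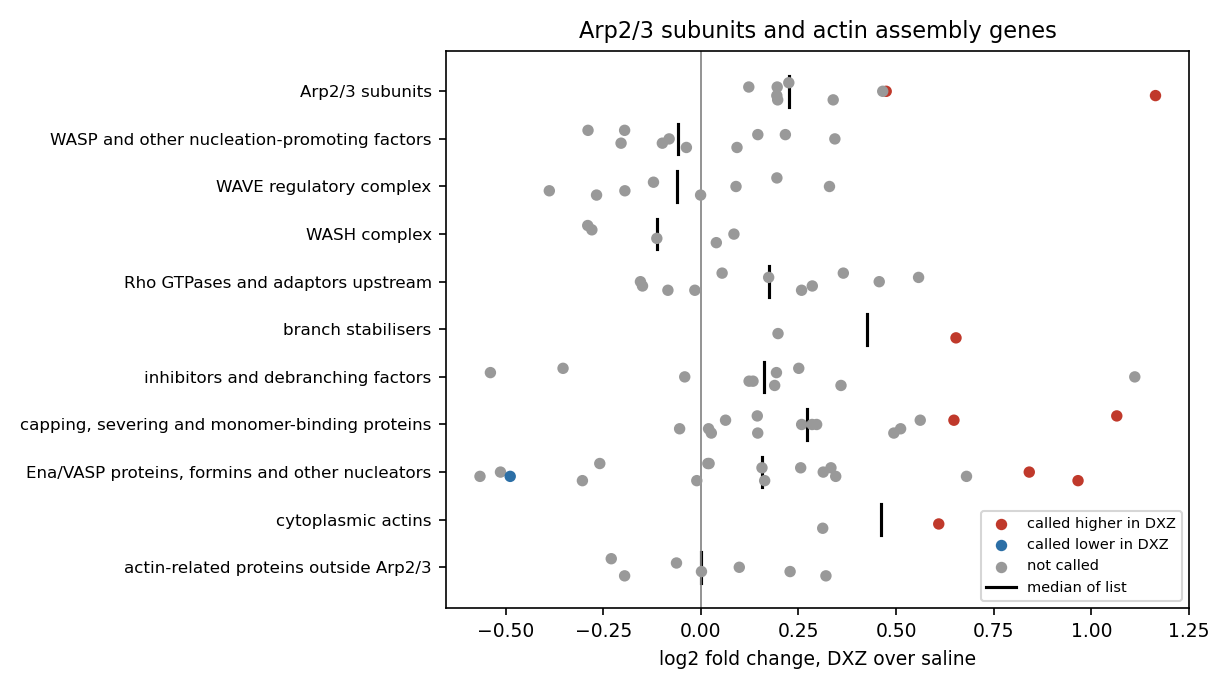
Log2 fold change, DXZ over saline (x axis), of each tested gene in the Arp2/3 family and 10 lists of actin assembly genes; red and blue points were called higher and lower in DXZ by edgeR at an adjusted p below 0.05, grey points were not, and black bars are list medians. Arpc1b at 1.16 is the rightmost point, and the activator lists have medians of -0.06, -0.06 and -0.11.

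ARPC1B is the main ARPC1 form of human blood cells, and leukocyte markers were therefore set beside it. Of 5 leukocyte markers 0 were called, and they summed to 79.5, 19.2 and 12.5 CPM in DXZ, against 47.9, 52.6, 32.5 and 20.9 CPM in saline. The sums of DXZ 2 and DXZ 3 lay below those of all saline libraries, and that of DXZ 1 above them, where Arpc1b had 249, 223 and 231 CPM in DXZ 1 to 3. Of 8 macrophage markers 1 rose, Cd68, and the 8 summed to 374, 129 and 74.6 CPM in DXZ, against 164, 225, 130 and 111 CPM in saline. Cd68, a lysosomal membrane protein of macrophages, had 40.6, 57.0 and 32.1 CPM in DXZ, against 7.97, 16.9, 12.7 and 8.34 CPM in saline, so that, as for Arpc1b, all DXZ libraries lay above all saline libraries (log2 fold change 1.91, SE 0.30, edgeR adjusted p = 0.0215). The other 7 macrophage markers overlapped between the groups. The lowest single values were 0.53 CPM for Adgre1 in DXZ 3 and, among leukocyte markers, 0.85 CPM for Cd53 in DXZ 2. Blood-cell forms of the pathway other than Gmfg were likewise high in DXZ 1. Nckap1l had 8.57, 1.27 and 1.30 CPM in DXZ and 3.12 to 5.62 CPM in saline. Rac2 had 8.96, 1.51 and 1.06 CPM in DXZ and 2.29 to 6.42 CPM in saline. Hcls1, Coro1a and Was also peaked in DXZ 1, and all 5 were uncalled with all libraries. Without DXZ 1, log2 fold changes were -1.65 for Nckap1l, which then passed (edgeR adjusted p = 0.0351), -1.73 for Rac2, -1.63 for Hcls1, -1.08 for Coro1a and -1.38 for Was, while Arpc1b was at 1.12. Gmfg, also a blood-cell form, went otherwise, with 8.12, 9.92 and 7.44 CPM in DXZ and 5.68 to 8.52 CPM in saline. Its log2 fold change was 0.19, and 0.23 without DXZ 1.

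Tubule markers also differed between the groups, some lists more than others. Of 7 proximal tubule markers 5 fell and 0 rose, and every one of the 7 was lower in each DXZ library than in each saline library. Their sum was 2469 to 3133 CPM in DXZ and 5454 to 10865 CPM in saline. Of 6 tubule injury markers 3 rose, Krt8, Krt18 and Krt20, and 0 fell, and the 6 summed to 5327 to 8854 CPM in DXZ and 1801 to 3667 CPM in saline. Of 5 markers of the thick limb, distal tubule and collecting duct 1 fell, Slc12a3, while Umod and Aqp2 overlapped between the groups. Slc12a1 went uncalled, yet every DXZ library lay below every saline library, with a log2 fold change of -0.99. Atp6v1g3, also uncalled, went the other way without overlap, at 0.51. Among 4 podocyte markers 0 were called. No marker of these lists was at 0 in any library, and the part of the leukocyte, macrophage, fibroblast, endothelial and tubule markers in the Arp2/3 values was not tested.

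**Figure D5:**
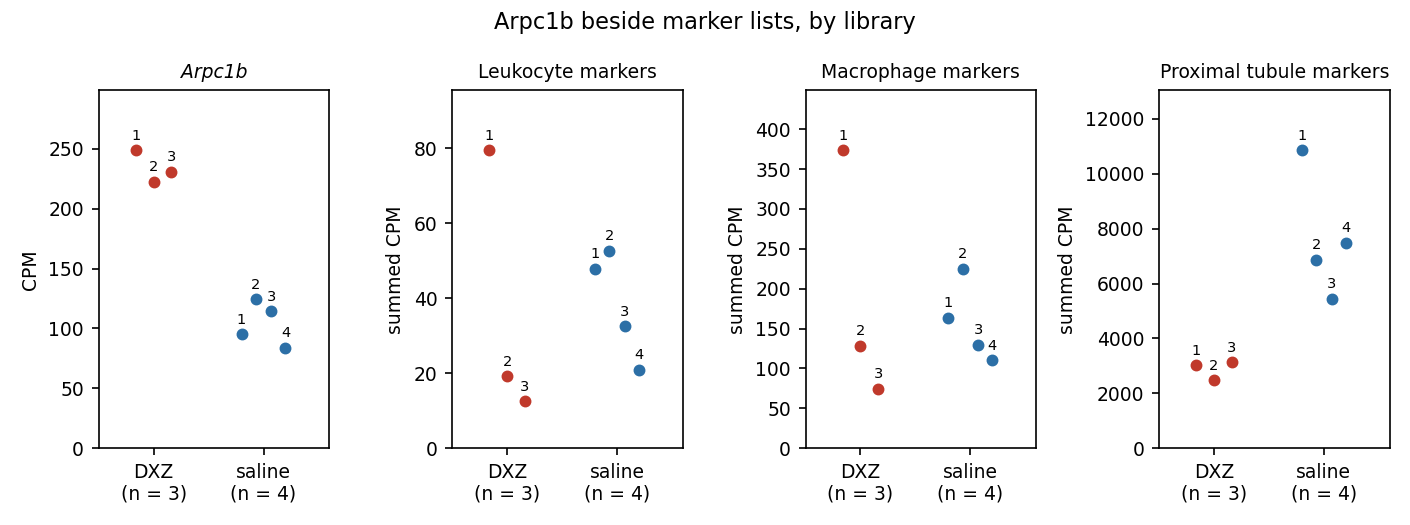
CPM of Arpc1b and summed CPM of 5 leukocyte, 8 macrophage and 7 proximal tubule markers (y axes, from 0) in each DXZ and saline library; numbers are replicates. Leukocyte and macrophage sums are high in DXZ 1 alone among the DXZ libraries, Arpc1b is at 223 to 249 CPM in all 3, and the proximal tubule sum is lower in all 3 than in saline.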

How the data were processed

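Bulk RNA-seq of 7 mouse kidney libraries was used, 3 labelled DXZ and 4 labelled saline. The deposited table holds whole-number read counts per gene, not normalized, and a second deposited table holds FPKM. For all genes with over 50 counts, FPKM was within 1% of the count over gene length times a constant of that library, so it is not an independent measurement. HISAT2, StringTie and mm9 are named without versions or roles, per the submitters' processing notes. Of 54409 identifiers shared with GENCODE M21 (GRCm38), 98.3% had the same start and end, so coordinates are taken as GRCm38. The sources used here do not give the counting program or its strand setting.

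Counts were fitted over the whole table in R 4.3.3 with edgeR 4.0.16 (filterByExpr, 15351 genes, TMM, quasi-likelihood F test, Benjamini-Hochberg adjustment, threshold 0.05) and checked on simulated data. Limma 3.58.1 and DESeq2 1.42.0 served as alternatives, and log2 CPM used a prior count of 2. SE is the log2 fold change over the square root of F. The subunits, lists, named genes and alternatives were chosen with earlier results of these data known. Named genes are the subunits and Actr3b, up to 3 passing genes of lowest adjusted p per pathway list, a set fixed by name whatever its result, and the 5 genes of most similar profile. Single markers are named where a list is checked. Within-group pairs of libraries had a chi-square of 14.0 to 90.4 per degree of freedom over genes, above sampling noise, and each was kept as a sample.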

Additional observations from a re-analysis of the deposited data

How the results depend on the processing

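All 9 subunits kept a positive log2 fold change in all 19 alternative settings (171 values), while counts of calls moved. The settings refit the same libraries whose comparison led to the choice of the subunits, so nothing is read from the shared sign. Of 15351 genes 853 were called; the count was 2126 by DESeq2, 145 by limma on unfiltered log2(FPKM + 1), 1332 without saline 1 and DXZ 1, 3 against a minimum fold of 1.5, and 1 to 1574 without single libraries. Of the 9 subunits 2 were called, and 4 by DESeq2 (Actr2 and Arpc5 added), where 5.56% and 14.4% of all genes were called. Only Arpc1b was called under median-of-ratios scaling, no filter, a filter of 1 CPM or voom, beside 5.46%, 3.62%, 6.16% and 5.48% of all genes. It was also the only one by the filtered limma fits on FPKM (7.05% and 6.64% of all genes) and the unfiltered one (0.533%). The same held without saline 1 and DXZ 1 (8.65%). None were called against a minimum fold of 1.5, beside 0.0195% of all genes. At an unadjusted p under 0.05 that setting had 1 subunit, beside 1006 of all 15351 genes. Without single libraries 0 to 2 were called, beside 0.00637% to 10.1% of all genes. Of 86 pathway genes 7 were called, 16 by DESeq2, 2 by limma on unfiltered log2(FPKM + 1), 0 against the minimum fold (4 at an unadjusted p under 0.05), and 0 to 9 without single libraries. With the replicate number as a replicate block, edgeR called 85 genes, 0.554% of all, with 0 subunits and 0 pathway genes. At an unadjusted p under 0.05 that fit had 4 subunits and 18 pathway genes, beside 3231 of all 15351 genes. Same-numbered libraries correlated at 0.26, -0.09 and 0.23 in their deviations from group means, so the numbers are not taken as pairs. The ratio differences of both paralog pairs moved by less than 1 SD when single libraries were left out. CPM in place of FPKM and principal transcript lengths could not move them, since a fixed length per gene drops out of the difference. The same comparison led to the choice of the genes, so nothing is read from this. The span of subunit levels was 8.31, 8.03 to 8.46 without single libraries and 4.53 with principal transcript lengths, the length being the only change. The causes of the other shifts were not tested. Depth was not limiting for the subunits, which had at least 1006 counts in every library, but was for Actr3b. Levels per length depend on which exons count.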
